A study of Homo sapiens with 95 samples.

Results

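The MHC class I presentation genes were read as 9 symbols among the 27978 symbols of each count file. They were HLA-B, HLA-C, HLA-E and HLA-F, B2M, TAP1, TAP2, TAPBP and NLRC5, taken as a fixed list of symbols. All 9 were listed in every file, but only HLA-B, HLA-C, B2M and NLRC5 had a mean count above 1 over the 95 samples and could be tested. Statements on differences below concern these 4 of 9 genes and do not describe the pathway as a whole.

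MHC class I molecules show peptides from inside the cell to CD8 T cells, and interferons raise their amount on epithelial cells. HLA-B and HLA-C encode classical heavy chains, HLA-E a heavy chain that NK cell receptors read, and HLA-F a further nonclassical heavy chain. B2M is beta-2 microglobulin, the light chain that pairs with these heavy chains at the cell surface. TAP1 and TAP2 form the transporter that carries peptides into the endoplasmic reticulum, and TAPBP (tapasin) holds empty class I molecules at that transporter. NLRC5 is the transactivator of class I promoters.

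The cells were AALE, immortalized bronchial epithelial cells of human origin, profiled by sparse full length (SFL) sequencing, a pooled RNA-seq method with a barcode pair for each sample. Each sample belonged to 1 of 8 lines. FAT1 and CDKN2A were CRISPR knockouts, with cells given the Cas9-EGFP plasmid without guide RNA (GFP) as their control, and NRF2, FGFR1, NRG1 and PIK3CA were overexpressed, with a vector carrying the HcRed reporter (HCRED) as their control. GEO's labels call GFP a knockout too, although no gene was targeted in it. Confluent cells received DMSO, or cigarette smoke condensate (CSC) at 24 μg/ml, or the polycyclic hydrocarbon benzo(a)pyrene (BaP) at 173 μM, or the tobacco nitrosamine NNK at 490 μM. Each of the 32 combinations had 3 samples except CSC-treated FGFR1, which had 2. The labels do not say whether replicates came from separate cultures, whether a line was 1 clone, or how long the exposure lasted, so p-values measure the spread between these samples only.

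Between 287446 and 2116383 reads per sample were counted in genes, and 3 reads corresponded to between 1.42 and 10.4 counts per 1 000 000 (CPM). DMSO samples had the highest median depth with 1051108 reads, against 825587 in CSC, 836088 in BaP and 753703 in NNK. The targeted gene did not overlap between a line and its control in any of the 6 perturbed lines. FAT1 lay between 67.4 and 128 CPM in its knockout and between 258 and 447 in GFP, and FGFR1 between 988 and 1380 CPM in its line and between 29.7 and 71.3 in HCRED. All 10 basal airway epithelial markers were counted, and their summed level differed between lines. Its range is given with the comparisons of lines over all treatments in which a member was called. Of 10 leukocyte markers, 2 had a mean count above 1 and 2 had no read in any sample. Replicates of a combination differed by more than sampling noise, with a chi-square per gene above 1 in each of 94 pairs.

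Of the 9 members, 7 lie in the major histocompatibility complex on chromosome 6, and this region held few reads. Between ZSCAN23, the last gene before it (mean count 11.3), and BAK1, the first after it (mean count 14.9), the median of the mean counts of 168 protein-coding genes was 0. No read was counted in any sample for 115 of them (68.5%). Of the 20 protein-coding genes on each side together, 1 of 40 (2.5%) had no read, and of all others on the chromosome 62 of 764 (8.12%). A mean count above 1 was reached by 14 of the 168 genes (8.33%) against 538 of 764 (70.4%). The borders were set after the counts were seen.

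**Figure D1:**
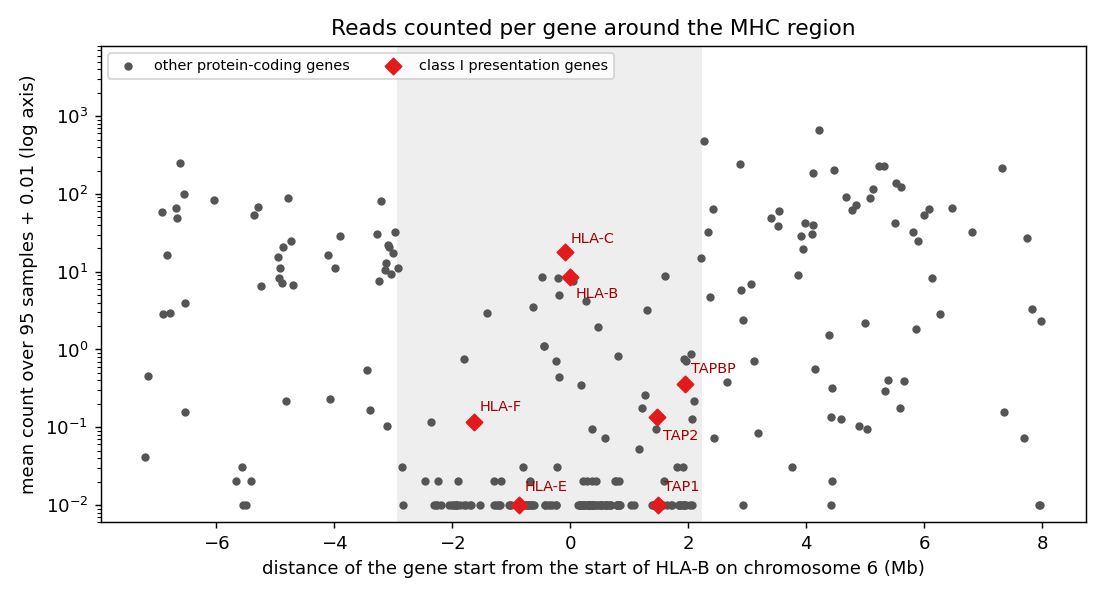
Mean count per protein-coding gene over the 95 samples (log axis, 0.01 added) against the distance of its start from that of HLA-B on chromosome 6, with the window between ZSCAN23 and BAK1 shaded and the 7 members in it drawn as diamonds. HLA-C and HLA-B stand at mean counts of 18.2 and 8.45, while HLA-E and TAP1 lie on the floor among 115 genes without a read.

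Genes of the region with no part in antigen presentation were low as well. Of 25 listed neighbours with general functions, 17 had no read in any sample and 3 had a mean count above 1. TUBB, a beta tubulin, had a mean count of 3.47, and BRD2, a bromodomain protein, one of 8.71. PSMB8 and PSMB9, the immunoproteasome subunits encoded beside TAP1, had 0 reads in all 95 samples, whereas the third such subunit, PSMB10, which lies on another chromosome, had a mean count of 7.6. Of the 29 HLA-named symbols in the files, HLA-DRB3 and HLA-DRB4 have no gene on the primary GRCh37 assembly in GENCODE. Per the study's methods, STAR ran against hg19 with a changed setting for sorted output only. Which sequences the index held besides the primary assembly, and the setting of featureCounts for reads with several matches, are not given in the sources used here. Their part in the low counts was not tested.

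At these counts 5 members cannot be called expressed or silent. HLA-E (chr6:30457286-30461971, GRCh37, plus strand) and TAP1 (chr6:32812986-32821593, minus strand) had 0 reads in all 95 samples, where 3 reads over the pooled depth would be 0.0335 CPM. HLA-F (chr6:29690552-29706305, plus strand) had 10 reads in 9 samples. TAP2 (chr6:32789610-32806516, minus strand) had 12 reads in 10 samples, and TAPBP (chr6:33267471-33282061, minus strand) had 33 reads in 29 samples. None of these genes reached the mean count needed for a test, and the floor covers counting error only. Where all genes with at least 1 count were tested, TAPBP was called lower in CDKN2A than in GFP with DMSO (-1.80, adjusted p = 0.0438), on 0, 0 and 0 reads against 1, 2 and 1.

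HLA-B (chr6:31321649-31334844, minus strand) and HLA-C (chr6:31236526-31239907, minus strand) kept some reads. HLA-B had between 0 and 25 reads per sample with a median of 7. HLA-C had between 4 and 48 with a median of 15. They are close copies of each other in the same sparse region, and their levels are therefore uncertain. The members outside the complex were B2M (chr15:45003556-45011049, plus strand), with 99 to 741 reads and a median of 252, and NLRC5 (chr16:57023397-57117443, plus strand), with 0 to 31 reads and a median of 10. Per kilobase of annotated exon, the mean count was 88.6 for B2M, 7.24 for HLA-C, 1.83 for HLA-B and 0.955 for NLRC5. On this length scale B2M was counted far above HLA-B and HLA-C. Both of these lie in the sparse region and B2M does not, so the values give no ratio of light to heavy chains.

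The promoters of B2M, HLA-B and HLA-C are shown because B2M and HLA-B were both higher in FGFR1 cells, as given below, and class I promoters share known elements. RefSeq windows (GRCh38.p14, 250 bases before to 50 after the gene start) were found for 7 members. Those of B2M (chr15:44711267-44711566, plus strand), HLA-B (chr6:31357130-31357429, minus strand) and HLA-C (chr6:31272043-31272342, minus strand) are printed 5′ to 3′. Capitals mark matches on either strand to the core of the interferon-stimulated response element (GAAA, any 2 bases, GAAA) and to the Y box CCAAT.
B2M: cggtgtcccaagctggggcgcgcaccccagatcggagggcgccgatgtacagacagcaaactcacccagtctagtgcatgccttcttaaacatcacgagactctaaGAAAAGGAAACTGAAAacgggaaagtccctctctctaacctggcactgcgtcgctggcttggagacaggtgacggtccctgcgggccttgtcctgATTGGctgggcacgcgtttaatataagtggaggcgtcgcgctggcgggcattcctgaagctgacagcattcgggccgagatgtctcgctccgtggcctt
HLA-B: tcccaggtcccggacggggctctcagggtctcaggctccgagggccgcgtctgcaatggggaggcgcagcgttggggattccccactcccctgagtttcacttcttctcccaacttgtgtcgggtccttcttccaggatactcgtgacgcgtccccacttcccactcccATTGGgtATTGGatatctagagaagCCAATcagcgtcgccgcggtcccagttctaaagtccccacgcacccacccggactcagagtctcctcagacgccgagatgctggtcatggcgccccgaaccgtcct
HLA-C: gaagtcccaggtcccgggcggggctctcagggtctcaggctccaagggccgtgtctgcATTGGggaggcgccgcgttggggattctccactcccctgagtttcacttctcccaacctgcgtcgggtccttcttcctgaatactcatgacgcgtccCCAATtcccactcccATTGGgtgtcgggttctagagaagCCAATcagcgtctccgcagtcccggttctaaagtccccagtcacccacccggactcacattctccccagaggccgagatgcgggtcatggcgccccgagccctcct
The B2M window holds 2 overlapping matches to the response element core, both upstream of the start, and 1 to CCAAT. The HLA-B and HLA-C windows hold 3 and 4 matches to CCAAT and 0 to the response element core as spelled above. Elements that depart from these letters are not marked, so their absence cannot be read from this count. Over the 7 members with a window, 5 hold the response element core against 3.57% of 35116 windows of the same length, and 5 hold CCAAT against 34.6%. Those with the core are B2M and HLA-F, TAP1, TAP2 and TAPBP, and of these only B2M had enough reads for a test. The gamma-activated site TTCNNNGAA was found in 0 of 7 and in 7.66% of all windows. A match describes letters in a window and not binding.

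B2M had a mean of 293 ± 43.4 CPM (SD, n = 95). Over the 4 treatments together its line means ran from 362 ± 49.9 CPM in FGFR1 (n = 11) through 306 ± 30.1 in GFP, 296 ± 29.8 in PIK3CA, 285 ± 34.8 in NRF2, 282 ± 35.6 in CDKN2A, 275 ± 20.4 in HCRED and 274 ± 42.5 in FAT1 to 272 ± 32.1 in NRG1 (n = 12 each). FGFR1 stood above the next line by more than either SD, and no other neighbours in this order did. NLRC5 ran from 18.9 ± 5 CPM in FGFR1 and 18.6 ± 7.02 in CDKN2A through 13.5 ± 6.1 in NRF2, 13.2 ± 6.78 in PIK3CA, 11.9 ± 5.33 in GFP, 11.6 ± 7.23 in HCRED and 10.4 ± 4.6 in NRG1 to 6.75 ± 3.64 in FAT1. HLA-B ran from 13.9 ± 4.41 CPM in FGFR1 to 5 ± 2.56 in FAT1, and HLA-C from 23 ± 7.25 in CDKN2A to 13.3 ± 4.28 in FAT1. No neighbours in the orders of NLRC5, HLA-B and HLA-C differed by more than the larger of their SDs.

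**Figure D2:**
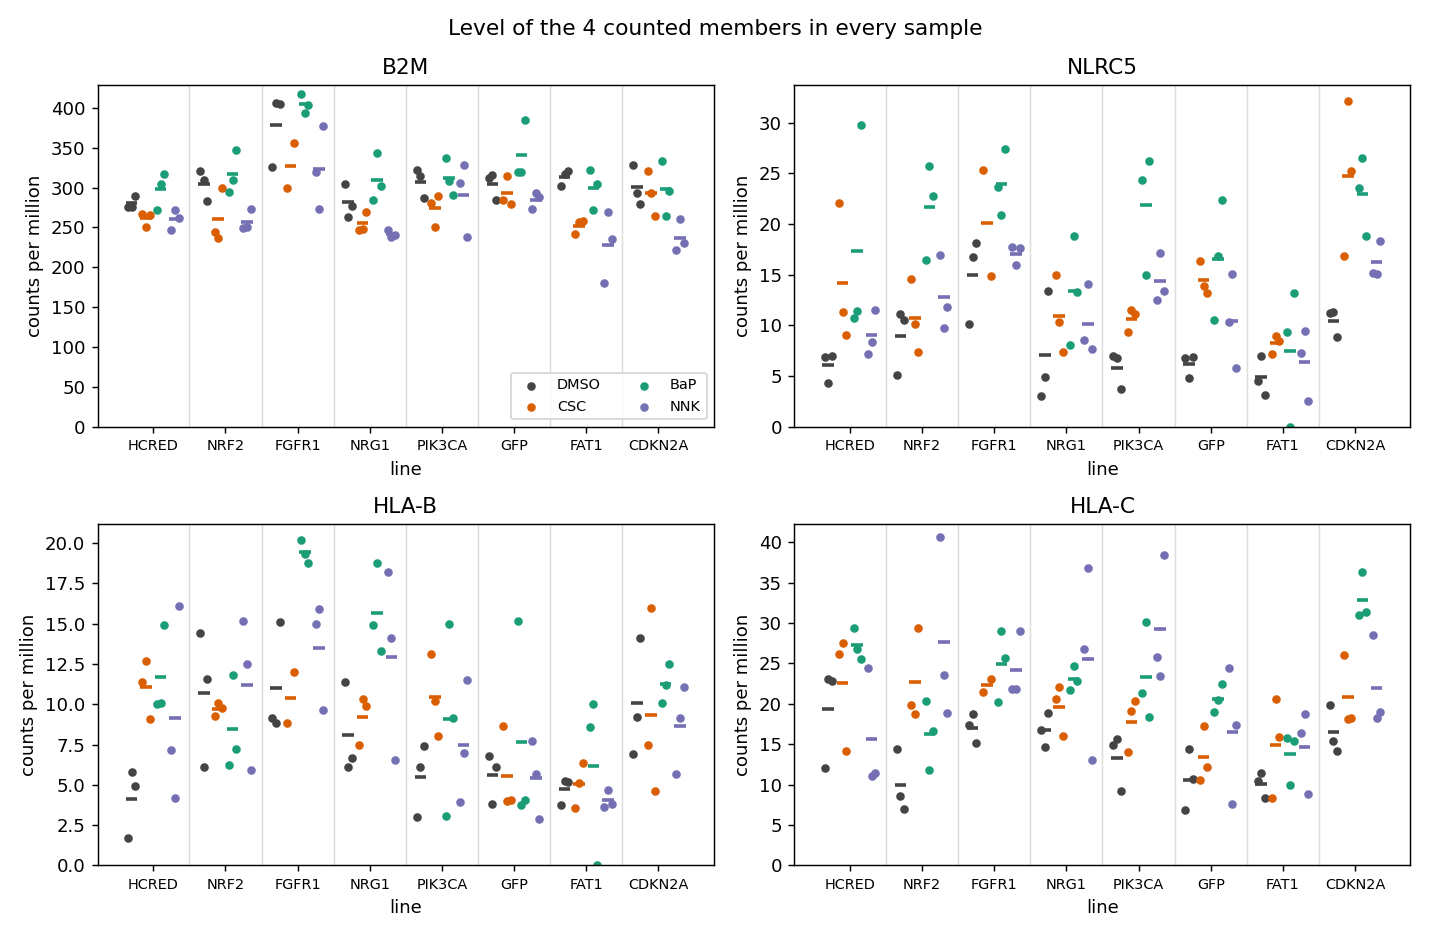
CPM of B2M, NLRC5, HLA-B and HLA-C in every sample (points) and the mean of each combination (short lines), by line and coloured by treatment, on axes that start at 0. B2M reaches 417 CPM in FGFR1 cells, and NLRC5 averages 6.75 CPM in FAT1 cells against 18.9 in FGFR1 cells.

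B2M was higher in FGFR1 cells than in their control under every treatment. With DMSO, FGFR1 samples had 326, 406 and 405 CPM of B2M, and HCRED samples had 276, 276 and 290. The groups did not overlap, and B2M rose by 0.41 (SE 0.0856, adjusted p = 0.00185) on the log2 scale in limma-voom over all genes. In this comparison 1.86% of all genes tested were called at 0.05, and B2M was the 1 of 4 tested members among them. NLRC5 had 10.1, 16.7 and 18.1 CPM against 6.88, 4.33 and 6.93, again without overlap, with a log2 difference of 1.13 (SE 0.412, adjusted p = 0.166) that did not pass. HLA-B differed by 1.5 (SE 0.507, adjusted p = 0.122) and HLA-C by -0.06 (SE 0.293, adjusted p = 0.964), neither of which passed. The share of all genes whose FGFR1 and HCRED samples did not overlap with DMSO was not counted.

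With the chemicals, FGFR1 samples had 299 and 356 CPM of B2M under CSC against 267, 251 and 266 in HCRED. Under BaP they had 417, 394 and 404 against 272, 305 and 317, and under NNK 319, 273 and 377 against 247, 272 and 262. Every FGFR1 sample thus lay above every HCRED sample within each of the 4 treatments. How many of all genes separate in this way was not counted. Over all treatments B2M rose by 0.40 (SE 0.0488, adjusted p = 2.2e-11), a 1.32-fold difference, and the call held in all 11 alternatives.

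Over all treatments 3 of the 4 tested members were higher in FGFR1, beside 14.2% of all genes called and 7.33% called as higher. NLRC5 rose by 0.76 (SE 0.203, adjusted p = 0.00381), or 1.7-fold, with a median of 17.7 (10.1 to 27.4) CPM in FGFR1 and 9.91 (4.33 to 29.8) in HCRED. HLA-B rose by 0.66 (SE 0.225, adjusted p = 0.0313), with a median of 15 (8.84 to 20.2) CPM against 9.55 (1.72 to 16.1). The ranges of both genes overlapped between the lines. HLA-C differed by 0.10 (SE 0.163, adjusted p = 0.754). NLRC5 missed the threshold without the samples numbered 2 (0.61, adjusted p = 0.11), and HLA-B missed it without those numbered 1 (0.52, adjusted p = 0.202), 2 (0.71, adjusted p = 0.118) or 3 (0.79, adjusted p = 0.066). Leukocyte markers summed to 11.8 to 32.7 CPM in FGFR1 and 5.55 to 31.9 in HCRED. Of 10 basal markers 1 was higher and 7 were lower in FGFR1, with a summed level of 7.79e+03 to 1.11e+04 CPM against 1.06e+04 to 1.4e+04. The part of either list in these values was not tested.

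Other genes of peptide supply were higher in the same line. Of 9 tested genes of that list, 4 rose and 0 fell, beside 7.33% of all genes called as higher. The median difference was 0.39 against 0.00 over all genes. ERAP1, an endoplasmic reticulum aminopeptidase that trims peptides, rose by 0.57 (SE 0.0709, adjusted p = 6.78e-11), and ERAP2, its relative, by 0.53 (SE 0.161, adjusted p = 0.0137). PSME1, a subunit of the proteasome activator PA28, rose by 0.44 (SE 0.0876, adjusted p = 6.63e-05), and CANX, the chaperone calnexin, by 0.22 (SE 0.0307, adjusted p = 1.02e-08). Of 21 regulators of class I genes, 2 rose and 1 fell, a share near the 14.2% of all genes called. IRF1, a transcription factor induced by interferon gamma, rose by 0.75 (SE 0.132, adjusted p = 4.75e-06), and RELA, an NF-kappaB subunit, fell by 0.43 (SE 0.108, adjusted p = 0.00198). Of 17 tested interferon-stimulated genes, 14 rose and 0 fell, beside the same 7.33% of all genes higher. MX1, an antiviral GTPase, rose by 1.81 (SE 0.225, adjusted p = 6.37e-11).

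In the FAT1 knockout NLRC5 was lower. NLRC5 had a median of 7.22 (0 to 13.2) CPM in FAT1 and 11.9 (4.79 to 22.4) in GFP, and its mean was lower in each of the 4 treatments. It fell by 0.81 (SE 0.239, adjusted p = 0.0028), and this call held in all 11 alternatives, with values from -0.98 to -0.71. The light chain B2M fell by 0.13 (SE 0.0495, adjusted p = 0.0265), a call that 3 of 11 alternatives did not keep, namely the fits without the samples numbered 1 (-0.12, adjusted p = 0.0903) or 2 (-0.14, adjusted p = 0.0512) and the correction for GC content described below. HLA-B at -0.28 (SE 0.274, adjusted p = 0.41) and HLA-C at -0.14 (SE 0.188, adjusted p = 0.574) did not pass. The 2 called of 4 tested members stood beside 49.1% of all genes called, a share near that background. Of 10 basal markers 2 were higher and 7 lower in FAT1, with a summed level of 5.37e+03 to 8.01e+03 CPM against 7.95e+03 to 1.05e+04 in GFP. Leukocyte markers summed to 6.12 to 20.6 CPM against 4.07 to 19.4. Of tested markers, 1 of 2 for leukocytes, 1 of 2 for fibroblasts and 1 of 1 for endothelium were higher and 0 lower. The part of any of these lists in the member values was not tested.

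The interferon-stimulated genes were mostly higher in FAT1, with 13 of 17 higher and 0 lower, beside 25.3% of all genes higher. IFIT1, which binds foreign RNA, rose by 3.79 (SE 0.288, adjusted p = 7.16e-24). Peptide supply genes were 5 higher and 1 lower of 9, beside 49.1% of all genes called. ERAP2 rose by 0.67 (SE 0.162, adjusted p = 0.000265), and PDIA3, the disulfide isomerase ERp57 of the loading complex, fell by 0.30 (SE 0.0463, adjusted p = 1.21e-08). Of the 21 regulators, 4 rose and 7 fell, a share near the 49.1% of all genes called. Among them was NFYA, a subunit of the factor that binds the Y box, which fell by 0.75 (SE 0.0804, adjusted p = 5.8e-15). With DMSO alone, 26.3% of all genes and 0 of 4 tested members were called, and edgeR and DESeq2 also called 0 members. There NLRC5 stood at -0.38 (SE 0.473, adjusted p = 0.61) and B2M at 0.03 (SE 0.0808, adjusted p = 0.841), and 0 members had an unadjusted p under 0.05.

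In the CDKN2A knockout all 4 tested members were called, in a comparison in which 58.7% of all genes were. HLA-B rose by 0.64 (SE 0.247, adjusted p = 0.0211), HLA-C by 0.54 (SE 0.171, adjusted p = 0.00416) and NLRC5 by 0.61 (SE 0.202, adjusted p = 0.00593). Each of these had a higher mean than GFP in all 4 treatments. B2M fell by 0.11 (SE 0.049, adjusted p = 0.0439), a call lost in 9 of 11 alternatives. HLA-B missed the threshold without the samples numbered 2 (0.34, adjusted p = 0.379) or 3 (0.48, adjusted p = 0.176), HLA-C without those numbered 1 (0.40, adjusted p = 0.114), and NLRC5 also without those numbered 1 (0.55, adjusted p = 0.0595). With GC content removed, HLA-C had 0.265 (adjusted p = 0.176). Markers of other cell types moved in this comparison too, with 1 of 2 tested leukocyte markers, 1 of 2 fibroblast markers and 1 of 1 endothelial markers higher and 0 lower. Leukocyte markers summed to 6.97 to 28.1 CPM in CDKN2A and 4.07 to 19.4 in GFP, fibroblast markers to 25.9 to 64.1 and 10.7 to 54, and endothelial markers to 0 to 10 and 0 to 3.85. Their part in the member values was not tested.

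With DMSO alone, 37.2% of all genes and 0 of 4 members were called in CDKN2A, and edgeR and DESeq2 also called 0 members. HLA-B stood at 0.76 (SE 0.428, adjusted p = 0.16), HLA-C at 0.64 (SE 0.326, adjusted p = 0.116), NLRC5 at 0.70 (SE 0.402, adjusted p = 0.169) and B2M at -0.02 (SE 0.0774, adjusted p = 0.833), and 0 of them had an unadjusted p under 0.05. Peptide supply genes over all treatments were 2 higher and 3 lower of 9, with PSME1 lower by 0.63 (SE 0.0943, adjusted p = 3.88e-09) and CALR, the chaperone calreticulin, higher by 0.41 (SE 0.0374, adjusted p = 3.08e-19). Of the 21 regulators 7 rose and 9 fell. RFXAP, a subunit of the RFX complex at MHC promoters, fell by 0.91 (SE 0.168, adjusted p = 1.07e-06), and IRF1 fell by 0.64 (SE 0.144, adjusted p = 6.32e-05). Of the interferon-stimulated genes 9 of 17 rose and 3 fell. These counts stand beside the 58.7% of all genes called over all treatments, and those of peptide supply genes are near that share.

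The 2 controls differed from each other. HLA-C was lower in GFP than in HCRED by 0.52 (SE 0.173, adjusted p = 0.00993), and B2M was higher by 0.15 (SE 0.0492, adjusted p = 0.00839). HLA-B stood at -0.40 (SE 0.252, adjusted p = 0.195) and NLRC5 at 0.14 (SE 0.214, adjusted p = 0.622). The 2 calls stood beside 44.1% of all genes called. HLA-C missed the threshold without the samples numbered 1 (-0.41, adjusted p = 0.14) or 2 (-0.50, adjusted p = 0.0552), and with GC content removed it had -0.273 (adjusted p = 0.193). HLA-C averaged 23 ± 7.25 CPM in CDKN2A, 15.3 ± 5.78 in GFP and 21.2 ± 6.93 in HCRED, so that CDKN2A lay nearer to HCRED than to its own control. NLRC5 averaged 18.6 ± 7.02, 11.9 ± 5.33 and 11.6 ± 7.23 CPM in these lines, and both controls lay below CDKN2A. CDKN2A and HCRED were not compared by a test. Interferon-stimulated genes were 0 higher and 10 lower of 17 in GFP, beside 23.3% of all genes lower, and the GFP samples are shared with the comparisons of both knockouts.

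**Figure D3:**
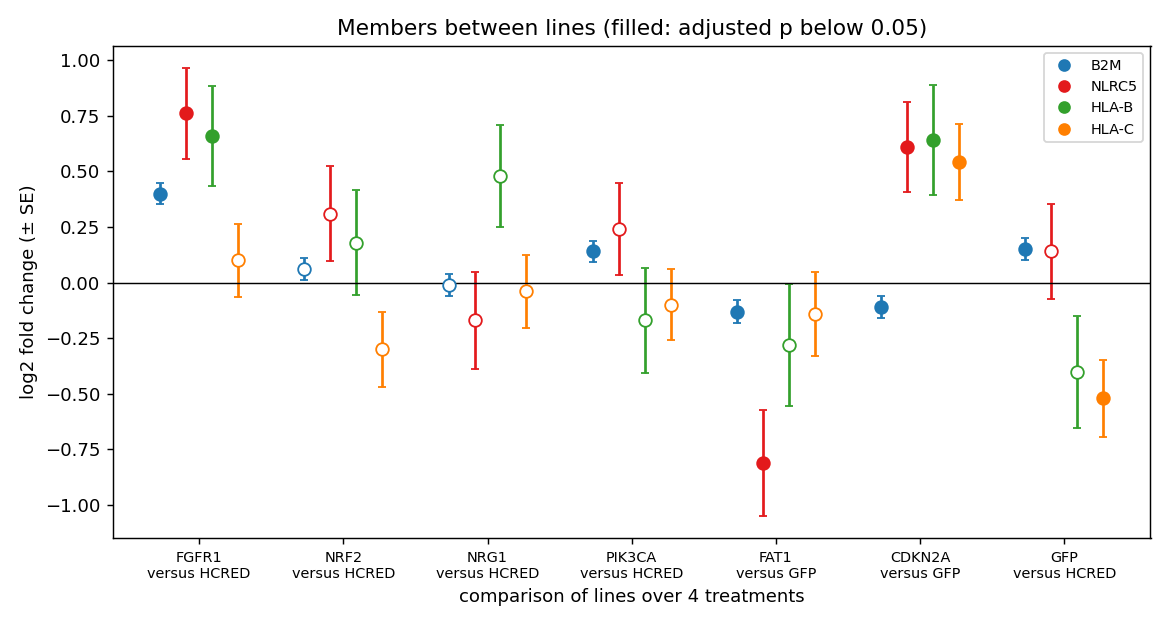
Log2 fold change of the 4 counted members (points, ± SE) in the 7 comparisons of lines over all treatments, with filled points where the adjusted p passed 0.05. FGFR1 has 3 filled points above 0, CDKN2A has 3 above 0 and B2M below it, and FAT1 has NLRC5 at -0.81.

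The other overexpression lines had 1 called member between them. In PIK3CA, B2M was higher by 0.14 (SE 0.0483, adjusted p = 0.0218), 1 call among 4 tested members beside 27.9% of all genes, and the call was lost without the samples numbered 1 (0.08, adjusted p = 0.367) or 2 (0.13, adjusted p = 0.112) and with GC content and length removed, at 0.092 (adjusted p = 0.171). HLA-B stood at -0.17 (SE 0.235, adjusted p = 0.644), HLA-C at -0.10 (SE 0.159, adjusted p = 0.705) and NLRC5 at 0.24 (SE 0.207, adjusted p = 0.425) in PIK3CA. Of 9 peptide supply genes 4 rose and 1 fell in PIK3CA, with ERAP2 at 0.54 (SE 0.156, adjusted p = 0.00475), and 10 of 17 interferon-stimulated genes rose and 0 fell, beside 14.2% of all genes higher. In NRF2, 0 of 4 members and 22.0% of all genes were called, with NLRC5 at 0.31 (SE 0.212, adjusted p = 0.317), HLA-C at -0.30 (SE 0.169, adjusted p = 0.216), HLA-B at 0.18 (SE 0.234, adjusted p = 0.655), B2M at 0.06 (SE 0.0503, adjusted p = 0.424) and 0 members under an unadjusted p of 0.05. In NRG1, 0 of 4 members and 12.5% of all genes were called, and HLA-B at 0.48 (SE 0.228, adjusted p = 0.163) was the 1 member under an unadjusted p of 0.05. HLA-C stood at -0.04 (SE 0.162, adjusted p = 0.928), B2M at -0.01 (SE 0.05, adjusted p = 0.953) and NLRC5 at -0.17 (SE 0.218, adjusted p = 0.692) in NRG1. The edgeR quasi-likelihood test and DESeq2 also called 0 members in NRF2 and NRG1.

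With DMSO alone these lines gave 0 called members by limma-voom, edgeR and DESeq2, where 7.16% of all genes were called for NRF2, 2.04% for NRG1 and 8.6% for PIK3CA. HLA-B stood at 1.48 (SE 0.521, adjusted p = 0.0689) in NRF2, 1.16 (SE 0.533, adjusted p = 0.319) in NRG1 and 0.56 (SE 0.552, adjusted p = 0.626) in PIK3CA. These values rest on few reads, since the HCRED samples with DMSO had 2, 4 and 5 reads of HLA-B and the NRF2 samples had 14, 5 and 10. The HCRED counts also enter the FGFR1 value given above. In NRF2, 2 members had an unadjusted p under 0.05, HLA-B and HLA-C, in NRG1 only HLA-B did, and in PIK3CA 0 did.

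NLRC5 was higher with each chemical than with DMSO over the 8 lines. NLRC5 had a median of 6.92 (3.03 to 18.1) CPM with DMSO, 11.5 (7.16 to 32.1) with CSC, 18.8 (0 to 29.8) with BaP and 12.2 (2.53 to 18.3) with NNK. Its mean was above that with DMSO in 8 of 8 lines under each chemical. All treated samples lay above all DMSO samples in 6 lines for BaP, 5 for CSC and 3 for NNK. HLA-C separated in this way in 6 lines for BaP, 2 for CSC and 3 for NNK. The share of all genes that did so was not counted. On the log2 scale NLRC5 rose with BaP by 1.09 (SE 0.143, adjusted p = 7.95e-11), or 2.13-fold, with CSC by 0.78 (SE 0.147, adjusted p = 2.12e-06) and with NNK by 0.65 (SE 0.152, adjusted p = 0.000141). In these comparisons 51.0%, 55.1% and 51.8% of all genes were called. Markers of leukocytes, in which NLRC5 is known to be abundant, summed to 6.12 to 19.3 CPM with DMSO, 10.3 to 42 with CSC, 4.07 to 41.7 with BaP and 5.55 to 25.4 with NNK. Fibroblast markers summed to 8.21 to 34.9 CPM with DMSO, 14 to 57.3 with CSC, 12.5 to 68.4 with BaP and 11.7 to 51.7 with NNK, and 2 of 2 tested rose with each chemical. Of 2 tested leukocyte markers, 2 rose with CSC, 1 with BaP and 0 with NNK, and 0 fell. The part of either list and that of the deeper DMSO libraries were not tested.

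The chemical comparisons and some comparisons of lines moved with base composition. Sorted by GC content, the fifth with the lowest content among genes with 10 or more reads on average had a median difference of -0.24 with BaP and the fifth with the highest had 0.39. The medians were -0.28 and 0.43 with CSC, and -0.27 and 0.41 with NNK. NLRC5 (58.05% GC in its longest transcript) and HLA-C (62.66%) lie among the genes of the highest content and B2M (38.86%) among those of the lowest. After removal of the trend over GC content and length, NLRC5 had 0.784 (adjusted p = 1.84e-06) for BaP, 0.443 (adjusted p = 0.00913) for CSC and 0.319 (adjusted p = 0.127) for NNK, so that the NNK call was lost. Over all alternatives the adjusted p of NLRC5 lay between 2.66e-14 and 1.84e-06 for BaP, between 1.85e-07 and 0.00913 for CSC and between 8.94e-05 and 0.127 for NNK. In FGFR1 against HCRED the medians of these low-GC and high-GC genes were 0.01 and -0.04. They were -0.05 and 0.21 in FAT1, -0.12 and 0.15 in CDKN2A, and 0.07 and -0.12 in GFP against HCRED over all treatments. With DMSO alone they were -0.14 and 0.25 in FAT1, -0.17 and 0.23 in CDKN2A, and -0.14 and 0.16 in NRF2.

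The direction of B2M with CSC and NNK turned with that correction. B2M fell with CSC by 0.15 (SE 0.0348, adjusted p = 0.00013) and with NNK by 0.20 (SE 0.0359, adjusted p = 7.98e-07), with a lower mean in 8 of 8 lines for both. With BaP it stood at 0.06 (SE 0.0342, adjusted p = 0.149), with a higher mean in 6 of 8 lines. With GC content and length removed B2M had 0.101 (adjusted p = 0.0205) for CSC, 0.275 (adjusted p = 7.56e-11) for BaP and 0.056 (adjusted p = 0.323) for NNK. Both ways BaP gave the highest value of B2M and NNK the lowest, and the chemicals were not tested against each other.

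HLA-C and HLA-B were higher before the correction. HLA-C had a median of 14.5 (6.8 to 23.1) CPM with DMSO, 19.1 (8.35 to 29.4) with CSC, 22.1 (9.99 to 36.3) with BaP and 21.8 (7.56 to 40.6) with NNK. It rose with BaP by 0.70 (SE 0.116, adjusted p = 1.34e-07), with NNK by 0.56 (SE 0.118, adjusted p = 2.3e-05) and with CSC by 0.44 (SE 0.119, adjusted p = 0.000861). None of these 3 passed after the correction, which gave 0.255 (adjusted p = 0.0965) for BaP, 0.137 (adjusted p = 0.477) for NNK and -0.051 (adjusted p = 0.788) for CSC. HLA-B rose with BaP by 0.53 (SE 0.162, adjusted p = 0.00393), with a median of 10.6 (0 to 20.2) CPM against 6.41 (1.72 to 15.1) with DMSO. It had 0.404 (adjusted p = 0.0477) after the correction and missed the threshold without the samples numbered 2 (0.37, adjusted p = 0.152), with an adjusted p between 0.000622 and 0.152 over all its alternatives. HLA-B stood at 0.29 (SE 0.166, adjusted p = 0.124) with CSC and 0.25 (SE 0.168, adjusted p = 0.215) with NNK.

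**Figure D4:**
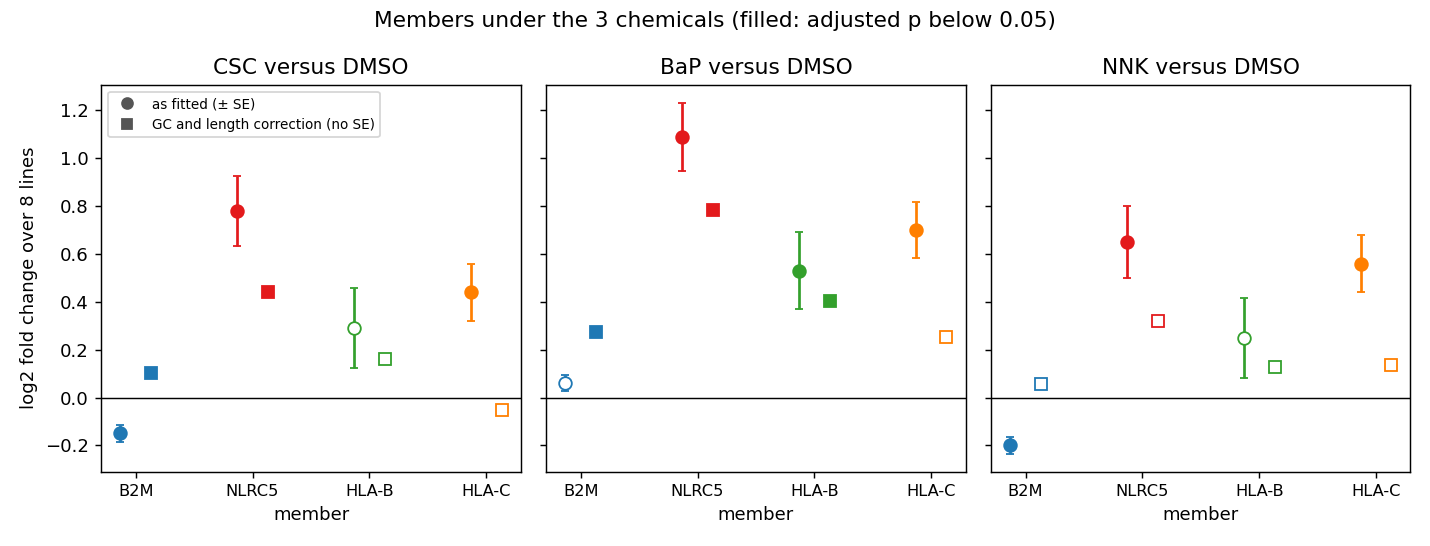
Log2 fold change of the 4 counted members with CSC, BaP and NNK against DMSO over 8 lines, as fitted and after removal of the trend over GC content and length, with filled points where the adjusted p passed 0.05. NLRC5 stays filled for CSC (0.443) and BaP (0.784), and B2M moves from -0.15 to 0.101 with CSC and from -0.20 to 0.056 with NNK.

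As fitted, the lists of peptide supply, regulator and interferon-stimulated genes had more lower than higher genes with CSC and NNK. Their counts and values with the chemicals are given without the correction, so the trend over GC content and length is not removed from them. Peptide supply genes were 0 higher and 4 lower of 9 with CSC, 1 and 3 with BaP, and 2 and 3 with NNK. PDIA3 fell by 0.31 (SE 0.0323, adjusted p = 7.37e-16) with CSC, by 0.27 (SE 0.0324, adjusted p = 2.62e-12) with BaP and by 0.19 (SE 0.0323, adjusted p = 2.57e-07) with NNK. Of 17 interferon-stimulated genes, 2 rose and 8 fell with CSC, beside 27.1% of all genes lower, and 2 rose and 6 fell with NNK, beside 25.7% lower. With BaP 8 rose and 1 fell, beside 26.1% of all genes higher. Of the 21 regulators 4 rose and 9 fell with CSC, 6 and 8 with BaP, and 3 and 8 with NNK. The shares of all genes called were 55.1% with CSC, 51.0% with BaP and 51.8% with NNK. The peptide supply counts, and those of the regulators with NNK, are near these shares. RELA rose by 0.55 (SE 0.0717, adjusted p = 2.85e-11) with CSC, 0.39 (SE 0.0733, adjusted p = 2.34e-06) with BaP and 0.50 (SE 0.0725, adjusted p = 2.17e-09) with NNK, and IRF1 by 0.41 (SE 0.0906, adjusted p = 6.72e-05) with BaP.

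The test of whether the response to a chemical differed between lines called 0 of 4 members and 2.36% of all genes. The adjusted p was 0.678 for HLA-C, 0.812 for HLA-B, 0.821 for B2M and 0.894 for NLRC5 (F test in limma-voom). By edgeR and DESeq2 0 of 4 were called too, and 0 had an unadjusted p under 0.05. Inside single lines, NLRC5 under BaP lay between 0.39 (SE 0.566) in FAT1 and 1.85 (SE 0.408) in PIK3CA. PIK3CA samples had 6.97, 6.79 and 3.7 CPM of NLRC5 with DMSO and 24.3, 15 and 26.2 with BaP. FAT1 samples had 4.49, 6.99 and 3.12 CPM with DMSO and 9.32, 0 and 13.2 with BaP. The FAT1 sample without a read of NLRC5 had 381419 counted reads. PIK3CA and FAT1 are the ends of this range, and BaP samples lay wholly above DMSO samples in 6 of 8 lines. How many of all genes separate so was not counted.

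**Figure D5:**
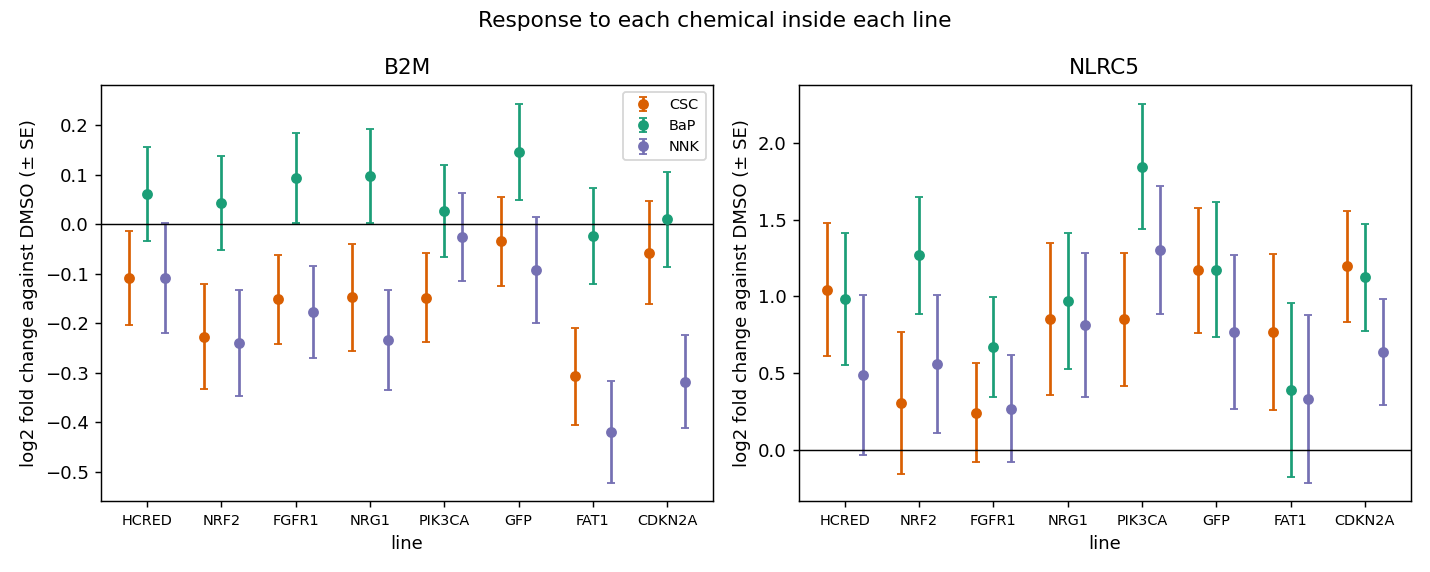
Log2 fold change of B2M and NLRC5 (± SE) for each chemical against DMSO inside each of the 8 lines. NLRC5 runs from 0.24 for CSC in FGFR1 to 1.85 for BaP in PIK3CA, and B2M lies below 0 with CSC and NNK in all lines.

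Over the 32 combination means on the log2 CPM scale, Pearson's r was 0.68 between HLA-C and NLRC5, 0.62 between HLA-B and NLRC5, and 0.6 between HLA-B and HLA-C. B2M had r of 0.37 with NLRC5, 0.3 with HLA-B and 0.01 with HLA-C. The combinations share the depth and base composition effects of their libraries, so these are descriptions. The genes outside the list most like B2M were ZNF182 (r = 0.716), DTX3L (0.656) and TXNL1 (0.63). Those most like NLRC5 were FTH1 (0.76), the ferritin heavy chain, ALDH2 (0.746) and SQSTM1 (0.735), the autophagy receptor p62. Those most like HLA-C were HES1 (0.767), a Notch target, TRIOBP (0.734) and MPST (0.725). HLA-B had a mean count below 10 and was left out of this search.

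Of 12 other class I-like genes 8 could be tested over all samples. In FAT1 2 of them were higher and 3 lower, with a median of -0.35, beside 49.1% of all genes called. The counts were 4 higher and 0 lower in CDKN2A, 0 and 1 in PIK3CA, and 3 and 1 in NRF2. In these comparisons 58.7%, 27.9% and 22.0% of all genes were called. MR1, which presents vitamin B metabolites, rose in FAT1 by 0.90 (SE 0.0917, adjusted p = 5.37e-16) and in CDKN2A by 0.42 (SE 0.0954, adjusted p = 6.44e-05) and fell in PIK3CA by 0.66 (SE 0.111, adjusted p = 5.07e-07). ULBP3, a ligand of the NK cell receptor NKG2D, rose in NRF2 by 0.43 (SE 0.131, adjusted p = 0.00951). Of 10 class II genes only HLA-DQB1 had a mean count above 1, at 3.22, and 4 had no read. HLA-DQB1 rose in CDKN2A by 1.45 (SE 0.401, adjusted p = 0.000999), in NRF2 by 0.99 (SE 0.351, adjusted p = 0.0299), with CSC by 0.81 (SE 0.261, adjusted p = 0.00539) and with NNK by 0.99 (SE 0.255, adjusted p = 0.00056), and it was lower in GFP than in HCRED (adjusted p = 0.0187). It was named after its values were seen, since it is the 1 class II gene tested. Of all genes, 55.1% were called with CSC, 51.8% with NNK and 44.1% in GFP against HCRED. The values of HLA-DQB1 are as fitted, without the correction for GC content and length.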

How the data were processed

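SFL libraries were pooled and sequenced in single reads. The authors trimmed adapters with Cutadapt 1.12, checked reads with FastQC 0.11.5, aligned them to RefSeq hg19 with STAR 2.5.2b and counted them in genes with featureCounts. They deposited 1 raw count per gene and sample for 95 samples, without normalization, and strand and multiple-match settings of the counting are not given in the sources used here. Groups and replicate numbers came from the sample titles.

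Counts were normalized by TMM (edgeR 4.0.16, R 4.3.3) and fitted with limma-voom 3.58.1 for genes with a mean count above 1. Adjusted p-values are Benjamini-Hochberg values over all genes tested, 2-sided, with a threshold of 0.05. Each perturbed line was compared with its control over the 3 samples each with DMSO. An additive model of line and chemical over 95 samples gave the comparisons over all treatments and over all lines, which share control samples, and the interaction was an F test. CPM used TMM-scaled library sizes, and log2 CPM had a prior count of 2. Depth is given in the report as the range over samples and the median per treatment, and intervals between samples cover their spread only.

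Results were recomputed with the quasi-likelihood test of edgeR, with DESeq2 1.42.0, its size factors, other count filters, the replicate number as a block, a loess correction for GC content and length (span 0.3), left-out replicates and lines, and fits with all combinations. Same-numbered samples did not deviate together (r between -0.0439 and 0.0704 over 18 pairs with DMSO). Gene positions, exon lengths, and the GC content and length of the longest transcript come from GENCODE v44lift37 on GRCh37, with 86.9% of symbols matched. Simulated counts were first run through the comparisons with DMSO, FGFR1 over all treatments, BaP over all lines and the interaction. The other comparisons and several of the alternatives were not run on simulated counts. The members and gene lists were chosen with earlier results of these data known. The 9 members were named whatever their values, except that a few values that missed the threshold with DMSO are left out, and genes of other lists are named when among the 4 largest changes past 0.05, given at least 10 reads on average, besides targeted genes and the 3 genes most like each member. Examples from the sparse region on chromosome 6 were chosen after their values were seen.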

Additional observations from a re-analysis of the deposited data

How the results depend on the processing

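The 22 calls of a member gave 314 values under the alternatives, of which 280 kept direction and side of the threshold, 31 missed the threshold and 3 turned direction. The calls kept throughout were B2M in FGFR1 with DMSO and over all treatments, B2M in GFP against HCRED, NLRC5 in FAT1, and NLRC5 with CSC and with BaP. The 3 reversals came with the correction for GC content and length, at -0.051 for HLA-C and 0.101 for B2M with CSC and 0.056 for B2M with NNK. Under that correction the number of called members over all treatments or lines was 1 in FAT1, 2 in CDKN2A, 0 in PIK3CA, 1 in GFP against HCRED and 0 with NNK. With a mean count of at least 10, CDKN2A had 2 called members, since HLA-B was no longer tested and B2M missed the threshold (-0.09, adjusted p = 0.0906). With all genes of at least 1 count, CDKN2A with DMSO had 1, TAPBP. Leaving out replicates gave 0 to 1 called members in NRF2 with DMSO, and over all treatments 1 to 2 in FAT1, 2 to 2 in CDKN2A, 1 to 2 in FGFR1, 0 to 1 in PIK3CA and 1 to 2 in GFP against HCRED. The cause of these losses was not tested.

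The replicate number as a block moved none of the 17 counts of called members, which were 0, 1, 2, 3 or 4 as without it, and same-numbered samples share only a number. Depth limits HLA-B and NLRC5, whose medians were 7 and 10 reads.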
